A study of Mus musculus with 4 samples.

Results

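Collagens are the main structural proteins of the extracellular matrix, and the genes of their chains were followed over 4 kinds of mouse cell measured on 4 Affymetrix oligonucleotide arrays. The members were the genes whose only symbol in the platform annotation had the form of a collagen chain name, a type number followed by a chain number. This gave 42 genes of 18193 measured, of which 11 encode fibrillar chains, 8 encode chains of the basement membrane and 23 encode chains of other types. Each gene was represented by the probe set with the highest mean log2 signal over the 4 arrays. The rule for members used the symbol and no signal.

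The study set motoneurons derived from embryonic stem (ES) cells beside stem cells and neurons, with 1 array per kind of cell. The HB9-GFP+-labelled array held sorted cells of a transgenic ES line in which green fluorescent protein (GFP) reports HB9, the product of Mnx1 and a marker of motor neurons. Per the labels, retinoic acid at 0.1 uM, purmorphamine at 0.2 uM and Sonic hedgehog, written as 200 uM, were given from day 5 to day 9 of differentiation and the sort was on day 8, so the stated days conflict. The second array held mouse cerebellar granule cells of postnatal day 6, and the third held sorted Sox1 neural stem cells, whose origin the labels do not describe. The fourth held undifferentiated ES cells of the HB9 line, which the labels say were maintained on mitomycin-treated mouse embryonic fibroblasts with 15% serum and 1000 U/ml leukemia inhibitory factor. Embryonic fibroblasts are themselves cells that secrete collagen. The labels give no strain, sex or genotype beyond this, and the same protocol text stands for all 4 samples.

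A collagen molecule is a triple helix of 3 chains, which may be identical or the products of different genes. Fibrillar collagens (types I, II, III, V and XI among them) assemble into the fibrils of connective tissue, while type IV forms the sheet-like network of basement membranes. Other types form beaded filaments, decorate fibrils or span the cell membrane. In the brain, fibrillar collagens are known mainly from the meninges and vessel walls, and basement membrane collagens from the pial surface and blood vessels.

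The values were linear array signals, scaled so that the trimmed mean of each array was 500. Median signals ran from 61.9 on the HB9-GFP+-labelled array to 90.7 in granule cells. A signal of 78.8, obtained by averaging the 4 median log2 signals, served as the low level, and lower signals were set to it in all differences. Genes counted as detected from 157.5 upward, which is 1 log2 unit above the low level. A call of higher or lower required detection on the brighter of 2 arrays and a difference of 4-fold or more. Between 9330 and 9518 genes were detected per array. Since every group is a lone array, replicate error is unknown, no p-value can be given, and differences describe these arrays. The SD of the log2 differences over 18 hybridisation controls was 0.06 to 0.11, and that among probe sets of the same gene was 0.56 to 0.85. The ratio of the actin control's 3′ to 5′ signal was 2.77 on the HB9-GFP+-labelled array, 2.29 in granule cells, 5.08 in Sox1 cells and 4.55 in ES cells. For the Gapdh control this ratio was 1.37, 2.7, 3.68 and 1.99 in that order.

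The labels were checked against marker genes. All 8 ES cell markers were detected on the HB9-GFP+-labelled array and all 8 in ES cells, against 7 in Sox1 cells and 2 in granule cells. Pou5f1, the central pluripotency factor, had a signal of 11188 on the HB9-GFP+-labelled array, 21.7 in granule cells, 514.3 in Sox1 cells and 9255.5 in ES cells. None of 8 motor neuron markers was detected on the HB9-GFP+-labelled array, where Mnx1 itself was at 15.9. That array therefore goes against its label and is called the HB9-GFP+-labelled array throughout. Of 7 granule neuron markers, 6 were detected on the granule array, 4 on the Sox1 array, 3 on the ES array and 2 on the HB9-GFP+-labelled array. The Sox1 array had all 6 neural stem cell markers, with Sox1 at 2262.1 there. The granule array had 4 of these 6, the ES array 3 and the HB9-GFP+-labelled array 2. Neither list was thus confined to 1 array. Fabp7 was at 17695 and Pax6 at 6180.5 in granule cells, and Zic1 at 8468.3 in Sox1 cells.

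Of the 42 collagen genes, 22 were detected on at least 1 array, 9 of 11 fibrillar, 4 of 8 basement membrane and 9 of 23 other genes. Over all 18193 genes, 11571 were detected on at least 1 array. The HB9-GFP+-labelled array had 15 detected (35.7%), the granule array 16 (38.1%), the Sox1 array 11 (26.2%) and the ES array 10 (23.8%). Over all genes the share detected was 51.3%, 52.3%, 51.5% and 51.8% in the same order. Among the 22 detected genes, the brightest array was the one labelled HB9-GFP+ for 10, the ES array for 5, the granule array for 4 and the Sox1 array for 3. Among the 11571 detected genes of the whole series, these numbers were 3213, 2687, 3290 and 2381 in that order. By representative probe sets, only 4 collagen genes were detected on all 4 arrays. Of these, 3 were the basement membrane genes Col4a1, Col4a2 and Col18a1. The fourth was Col6a2, which encodes a chain of the beaded filament collagen. No fibrillar gene was detected on all 4 by its representative probe set, although a further probe set of Col5a1 was.

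**Figure D1:**
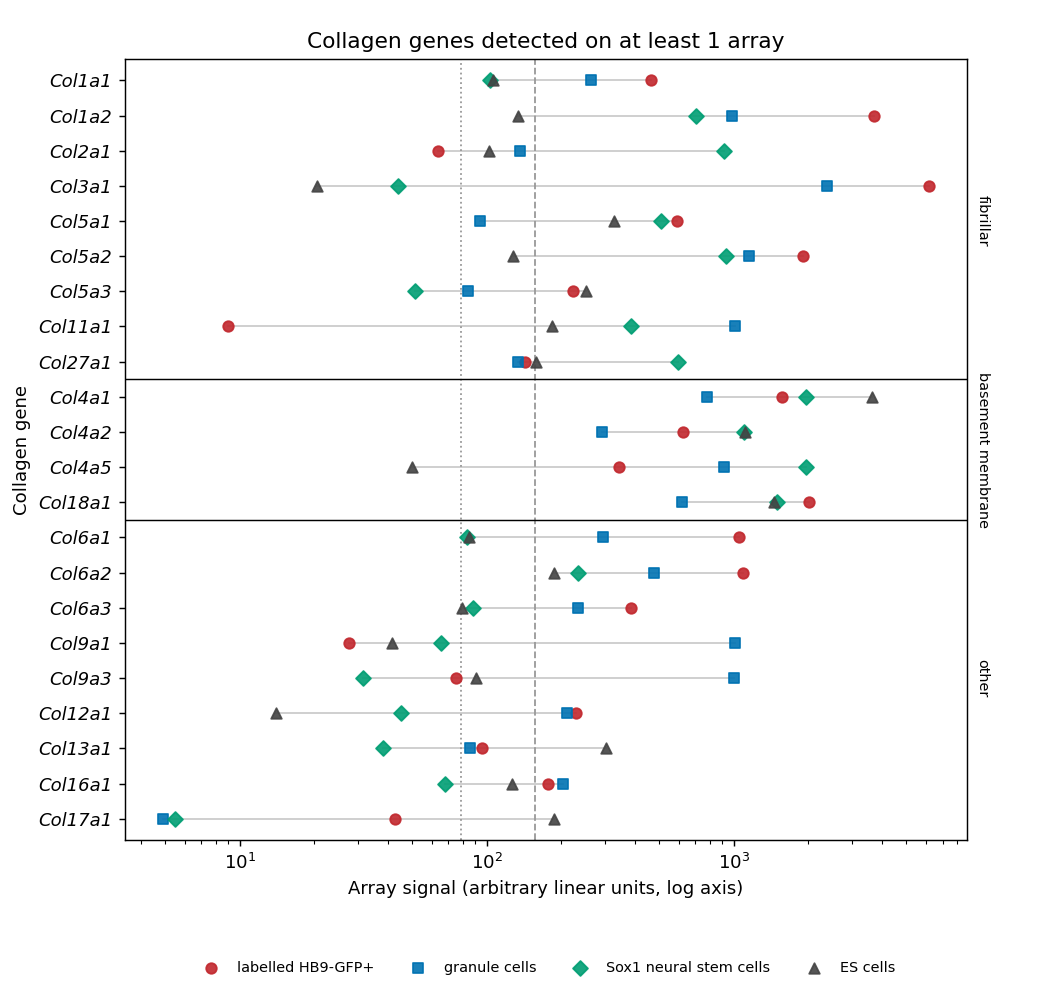
Signals of the 22 collagen genes detected on at least 1 array, on a log axis in arbitrary linear units, with 1 symbol per array and genes grouped by type. The dotted line is the low level (78.8) and the dashed line the detection level (157.5). Col3a1 spans the range from 20.6 in ES cells to 6165.2 on the HB9-GFP+-labelled array, while Col4a1, Col4a2 and Col18a1 lie to the right of the dashed line on every array.

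The promoters of 4 genes that carry the main patterns are shown, each as the 250 bases before the gene start in the RefSeq annotation of GRCm38.p6. Col1a2 (chr6:4505368-4505617, plus strand) and Col3a1 (chr1:45311288-45311537, plus strand) are the fibrillar genes with the largest differences between the HB9-GFP+-labelled array and the ES array. Col6a1 (chr10:76726045-76726294, minus strand) stands for the type VI genes, which differed alongside them. Col11a1 (chr3:114030290-114030539, plus strand) is a fibrillar gene that was dimmest on the HB9-GFP+-labelled array. Capitals mark a CCAAT box (CCAAT, or ATTGG on the other strand) or a TATA box (TATAAA, or TTTATA on the other strand).
Col1a2: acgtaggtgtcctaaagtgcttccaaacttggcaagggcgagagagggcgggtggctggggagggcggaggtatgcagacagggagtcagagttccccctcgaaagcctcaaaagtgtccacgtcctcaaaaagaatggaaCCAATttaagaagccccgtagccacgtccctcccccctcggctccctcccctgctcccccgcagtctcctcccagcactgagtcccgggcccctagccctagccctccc
Col3a1: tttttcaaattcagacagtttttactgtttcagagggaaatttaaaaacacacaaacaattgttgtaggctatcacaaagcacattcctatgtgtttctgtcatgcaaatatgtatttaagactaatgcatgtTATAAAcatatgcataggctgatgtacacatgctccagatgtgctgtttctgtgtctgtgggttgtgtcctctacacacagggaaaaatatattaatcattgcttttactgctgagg
Col6a1: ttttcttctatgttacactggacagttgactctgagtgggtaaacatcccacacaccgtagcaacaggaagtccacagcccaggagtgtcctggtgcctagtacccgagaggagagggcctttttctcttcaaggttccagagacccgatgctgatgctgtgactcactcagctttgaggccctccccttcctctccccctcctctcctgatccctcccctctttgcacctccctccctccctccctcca
Col11a1: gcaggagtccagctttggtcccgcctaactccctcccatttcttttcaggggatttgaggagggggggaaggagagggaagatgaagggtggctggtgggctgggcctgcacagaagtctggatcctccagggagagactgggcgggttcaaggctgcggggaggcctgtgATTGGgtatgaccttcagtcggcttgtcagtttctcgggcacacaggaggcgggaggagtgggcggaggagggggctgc
A CCAAT box lay 109 bases before the start of Col1a2 and, as ATTGG, 79 bases before that of Col11a1, while a TATA box lay 117 bases before the start of Col3a1. The marked motifs did not overlap, and the window of Col6a1 held neither. Promoter windows were found for 33 of the 42 genes, 36 windows in all. CCAAT stood in 13 of these 36, against 33.8% of all 32851 windows of that length, and TATAAA in 5, against 12.4%. The GC box (GGGCGG, or CCGCCC on the other strand) stood in 21 of 36, against 32.7% of all windows, and the collagen windows had a median GC content of 59.0%, against 52.4%. Such matches describe the letters and are not evidence of a binding site.

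Col1a1, Col1a2, Col3a1, Col5a1 and Col5a2 had their highest signal on the HB9-GFP+-labelled array by their representative probe sets. Col3a1 encodes the single chain of type III collagen, which is abundant in loose connective tissue and vessel walls. Its signal was 6165.2 on the HB9-GFP+-labelled array, 2387.6 in granule cells, 43.9 in Sox1 cells and 20.6 in ES cells. It was thus at least 78.3-fold higher on the HB9-GFP+-labelled array and at least 30.3-fold higher on the granule array than on the Sox1 and ES arrays, where it was below the low level. A further probe set of Col3a1 had the same order of arrays, at 541, 284.2, 33.8 and 9.4. Its log2 differences were smaller, 2.78 for the HB9-GFP+-labelled array minus ES and 1.85 for granule minus ES, the second short of 4-fold.

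Type I collagen, the main fibril of skin, bone and tendon, is built from the products of Col1a1 and Col1a2. Col1a2 had a signal of 3696.3 on the HB9-GFP+-labelled array, 980.9 in granule cells, 700.9 in Sox1 cells and 134.4 in ES cells. It was the only type I gene detected on the Sox1 array, and it was undetected on the ES array. The signal of Col1a1 was 461.4 on the HB9-GFP+-labelled array, 265.1 in granule cells, 103.2 in Sox1 cells and 105.9 in ES cells. Its other probe set, at 1202.4, 277.9, 39.2 and 20.7 in the same order, kept that pattern with a log2 difference of 3.93 between the HB9-GFP+-labelled array and the ES array, against 2.12. The chains of the type I molecule therefore shared their brightest array, but the neural stem cells were above detection for Col1a2 and below it for Col1a1.

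Type V collagen regulates the diameter of type I fibrils, and its genes did not share a pattern. Col5a2, which neighbours Col3a1 on chromosome 1, was at 1915 on the HB9-GFP+-labelled array, 1157.8 in granule cells, 927.6 in Sox1 cells and 127.3 in ES cells. Like Col1a2, it was detected on every array except that of ES cells. A further probe set of Col5a2 gave 193.8, 634.0, 567.4 and 68.9 in that order, so the ES array stayed dimmest while the HB9-GFP+-labelled array was dimmer than both neural arrays. Col5a1 was at 586.7 on the HB9-GFP+-labelled array, 93.7 in granule cells, 506.7 in Sox1 cells and 327.3 in ES cells, so that granule cells alone lacked it. On a further probe set of Col5a1 the granule signal was 176.3, above detection, against 327.4, 450.2 and 220.2 on the HB9-GFP+-labelled, Sox1 and ES arrays. Col5a3, the third type V gene, was at 224.5 on the HB9-GFP+-labelled array, 84.4 in granule cells, 51.1 in Sox1 cells and 251.7 in ES cells. Neither neural array detected it.

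The fibrillar genes known best from cartilage differed in their brightest array, which was that of Sox1 cells for Col2a1 and Col27a1 and that of granule cells for Col11a1, while Col11a2 was undetected on all 4. Col2a1, whose product is the main collagen of cartilage and is also made around the embryonic notochord and neural tube, was at 63.3 on the HB9-GFP+-labelled array, 135.8 in granule cells, 915.3 in Sox1 cells and 101.8 in ES cells. Only the neural stem cells passed detection, and Col2a1 was the sole collagen gene at least 4-fold higher on the Sox1 array than on each of the other 3. Over all genes 0.616% met that rule. No collagen gene met it on the HB9-GFP+-labelled array or the ES array, where 0.412% and 0.247% of all genes did. Col11a1, whose product joins type II fibrils, was at 9 on the HB9-GFP+-labelled array, 1012.7 in granule cells, 384.9 in Sox1 cells and 184.6 in ES cells. It was at least 12.9-fold lower on the HB9-GFP+-labelled array than on the granule array, and its further probe set had the same order, at 32.2, 489.2, 257.9 and 119.5. Col27a1, of a fibrillar type found in developing cartilage, was at 143.3 on the HB9-GFP+-labelled array, 133.6 in granule cells, 592.1 in Sox1 cells and 158.4 in ES cells. Of 6 cartilage markers outside the collagens, 0 were detected on the HB9-GFP+-labelled array and 1 on each of the other 3 arrays. That gene was Sox9, an activator of Col2a1 in cartilage that neural progenitors and glia also express, on the granule array (740.5) and the Sox1 array (450.5), and Matn3 in ES cells (328.2). Their part in the collagen signals was not tested.

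Of the 8 basement membrane genes, Col4a1, Col4a2 and Col18a1 were detected on all 4 arrays, Col4a5 on 3 and the other 4 on none. Col4a1 and Col4a2, whose products form the common type IV network, start 21 bases apart on opposite strands of chromosome 8. Col4a1 was at 1570.5 on the HB9-GFP+-labelled array, 776.7 in granule cells, 1954.3 in Sox1 cells and 3631.8 in ES cells. The signal of Col4a2 was 624 on the HB9-GFP+-labelled array, 294 in granule cells, 1096.2 in Sox1 cells and 1107.1 in ES cells. Both genes were thus dimmest on the granule array, next on the HB9-GFP+-labelled array, and brightest on the ES array, although Col4a2 hardly differed between the Sox1 and ES arrays. The difference of Col4a1 between the granule and ES arrays was 4.68-fold, but 0.80 log2 units in the same direction, short of 4-fold, on its further probe set. That probe set gave 571.3, 188.6, 439.8 and 327.3 in the order used above, with granule cells again dimmest but the HB9-GFP+-labelled array brightest.

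Col4a5 and its partner Col4a6 lie head to head on chromosome X, with starts 1343 bases apart, and encode chains of a type IV network of specialised basement membranes. Col4a5 was at 344.8 on the HB9-GFP+-labelled array, 909.3 in granule cells, 1965.6 in Sox1 cells and 49.9 in ES cells. It was the only basement membrane gene undetected on the ES array while present on the other 3, at least 25.0-fold higher in neural stem cells than in ES cells. A further probe set of Col4a5 gave 93.8, 162.1, 243.6 and 110.5 in that order, a log2 difference of 1.14 for Sox1 minus ES. It was undetected on both the HB9-GFP+-labelled array and the ES array, so the difference between these rests on the representative probe set. Col4a6 was undetected on all 4 arrays, between 65.1 and 102.2, and just passed the detection level on the Sox1 array with its further probe set, at 159.7. Col4a3 and Col4a4, which encode the chains of the kidney's glomerular membrane, did not exceed 57.1. Col18a1, whose product carries heparan sulfate and yields the fragment endostatin, was at 2010 on the HB9-GFP+-labelled array, 614.6 in granule cells, 1502.4 in Sox1 cells and 1449.9 in ES cells. Its relative Col15a1 stayed undetected, with 94.5 in granule cells as its highest signal.

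Type VI collagen forms beaded filaments around cells from the products of 3 genes, and these shared their brightest array. Col6a1 was at 1049.2 on the HB9-GFP+-labelled array, 296.9 in granule cells, 83.5 in Sox1 cells and 84.9 in ES cells. The signal of Col6a2, its neighbour on chromosome 10, was 1090.9 on the HB9-GFP+-labelled array, 473.5 in granule cells, 234.2 in Sox1 cells and 187.7 in ES cells. Col6a3 was at 383.6 on the HB9-GFP+-labelled array, 233.8 in granule cells, 87.9 in Sox1 cells and 79.8 in ES cells. All 3 were brightest on the HB9-GFP+-labelled array and next on the granule array, and Col6a1 and Col6a3 were undetected on the Sox1 and ES arrays. Differences between the HB9-GFP+-labelled array and the ES array were 3.63, 2.54 and 2.27 log2 units for Col6a1, Col6a2 and Col6a3. The further type VI genes Col6a4 and Col6a5 were undetected on every array.

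Of the 3 genes of type IX collagen, which coats type II fibrils in cartilage, Col9a1 and Col9a3 were detected in granule cells alone and Col9a2 on no array. Col9a1 was at 27.8 on the HB9-GFP+-labelled array, 1010.2 in granule cells, 65.1 in Sox1 cells and 41.3 in ES cells. The signal of Col9a3 was 75.2 on the HB9-GFP+-labelled array, 1002.8 in granule cells, 31.5 in Sox1 cells and 90.2 in ES cells. These were the 2 collagen genes at least 4-fold higher on the granule array than on each other array, a rule met by 2.72% of all genes, so 2 of 42 is not read as a result about collagens. A further probe set of Col9a3 gave 32.7, 494.5, 6.7 and 37.1, again with granule cells alone above detection. That of Col9a1 was undetected throughout, though brightest on the granule array at 129.4. Col9a2, which encodes the remaining chain of the molecule, was at 75.7 on the HB9-GFP+-labelled array, 4.8 in granule cells, 2.4 in Sox1 cells and 50.1 in ES cells.

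Smaller differences were seen among the remaining types. Col12a1, which links fibrils in dense connective tissue, was at 230.1 on the HB9-GFP+-labelled array, 210.8 in granule cells, 45 in Sox1 cells and 14 in ES cells. Its relative Col16a1 was at 177.1 on the HB9-GFP+-labelled array, 203.8 in granule cells, 67.6 in Sox1 cells and 127.1 in ES cells. Neither was called in any comparison. The transmembrane collagen genes Col13a1 and Col17a1, whose products sit at adhesive junctions and hemidesmosomes, were detected on the ES array alone. Col13a1 was at 95.9 on the HB9-GFP+-labelled array, 85.6 in granule cells, 38 in Sox1 cells and 304.7 in ES cells, and Col17a1 was at 42.5, 4.9, 5.5 and 187.4 in the same order.

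The other 20 collagen genes were undetected on all arrays by their representative probe set, with signals from 2.3 to 131.4. They included Col25a1, a transmembrane collagen made by neurons, at 30.5 on the HB9-GFP+-labelled array, 17.4 in granule cells, 82 in Sox1 cells and 96 in ES cells. For 4 of them a dimmer-ranked probe set passed detection somewhere, those for Col4a6, Col8a1, Col22a1 and Col23a1. Col8a1 encodes a chain of a short network-forming collagen of vessel walls. A further probe set of it was at 587.9 on the HB9-GFP+-labelled array, 3.6 in granule cells, 49.9 in Sox1 cells and 9.1 in ES cells, while its representative was at 131.3, 27.4, 7.2 and 41.7. Col23a1, a transmembrane collagen gene, was at 259.1 in granule cells with a further probe set, against 29.4, 51 and 5.2 on the HB9-GFP+-labelled, Sox1 and ES arrays.

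Set against ES cells, the HB9-GFP+-labelled array had collagen genes called higher and none called lower. Of 42 genes, 8 were higher and 0 lower, where 1.11% of all genes were higher and 0.813% lower. The 8 were Col1a1, Col1a2, Col3a1 and Col5a2 of the fibrils, the type VI genes Col6a1, Col6a2 and Col6a3, and Col4a5 of the basement membrane. Their log2 differences ran from 2.12 for Col1a1 to 6.29 for Col3a1. Averaging a gene's probe sets gave 5 higher (0.781% of all genes), and Col4a5 was at 1.98, short of the rule, with the arrays centred on reference genes. Higher calls made up 57.7% of all calls over all genes, and 67.8% after quantile normalization. Under that normalization 8 collagen genes were again higher and 0 lower, where 1.28% and 0.605% of all genes were. The median difference was 0.00 over the 42 genes, over the fibrillar genes and over the basement membrane genes, as over all genes. Without the low level it was -0.21 over the 42 genes and 0.84 over the fibrillar genes. It was -1.02 over the basement membrane genes and -0.11 over all genes. Since 4 of the 8 basement membrane genes were undetected on all arrays, the -1.02 depends on signals under the low level and is not read as a difference. Summed signals of the 8 basement membrane genes were 4631.6 on the HB9-GFP+-labelled array and 6423.3 in ES cells. Among these 8, Col4a1 differed most, at 1570.5 against 3631.8, but its further probe set had the reverse order, 571.3 against 327.3. The lower sum thus rests on 1 probe set. Summed signals of the 11 fibrillar genes were 13309.4 and 1435.1.

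**Figure D2:**
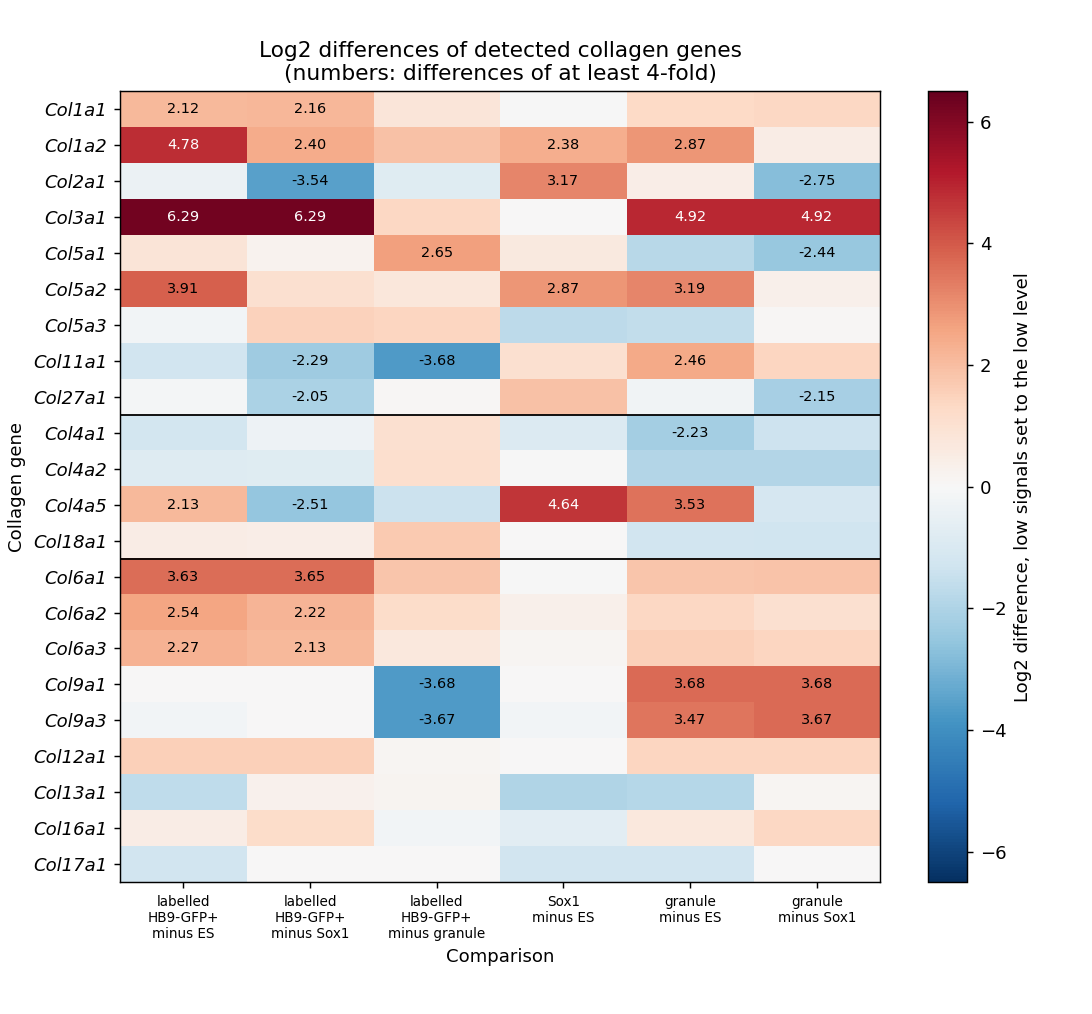
Log2 differences of the 22 detected collagen genes in the 6 comparisons, with signals under 78.8 set to that level. Red means higher and blue lower on the array named on the upper lines of a label, and numbers are printed where the difference was at least 4-fold. The largest value is 6.29 for Col3a1, on the HB9-GFP+-labelled array against both the ES and Sox1 arrays.

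Against Sox1 neural stem cells, the HB9-GFP+-labelled array differed in both directions. There 6 collagen genes were higher (14.3%) and 4 lower (9.52%), where 3.22% of all genes were higher and 3.97% lower. Higher were Col1a1, Col1a2, Col3a1, Col6a1, Col6a2 and Col6a3, of which Col1a2 was 5.27-fold and Col6a2 4.66-fold higher. The lower genes were Col2a1, Col4a5, Col11a1 and Col27a1, with Col2a1 at least 11.6-fold and Col4a5 5.70-fold lower. The median over the 11 fibrillar genes was 0.21, against 0.00 over all genes. This comparison shares an array with the preceding one, so the same high signals enter both.

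Against granule cells, the share of collagen genes called was near or below that of all genes. Here 1 gene was higher (2.38%) and 3 were lower (7.14%), where 5.53% of all genes were higher and 7.41% lower. Col5a1 was the higher gene, at 586.7 against 93.7. Col11a1, Col9a1 and Col9a3 were lower, at least 12.9-fold, 12.8-fold and 12.7-fold. The chains of types I, III and VI were brighter on the HB9-GFP+-labelled array by less than 4-fold, with log2 differences of 1.37 for Col3a1 and 0.80 for Col1a1. With each gene represented by the probe set of highest mean linear signal, 3 genes were higher (5.63% of all genes), since Col1a1 and Col8a1 then passed the rule. Over all genes 42.7% of the calls were higher in this comparison, and 23.9% with the arrays centred on reference genes, while the collagen counts stayed at 1 and 3.

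Neural stem cells had 4 collagen genes higher (9.52%) and 0 lower than ES cells, where 3.59% of all genes were higher and 3.02% lower. Col4a5 led with a log2 difference of 4.64, followed by Col2a1 (3.17), Col5a2 (2.87) and Col1a2 (2.38). None of the 23 genes of other types was called. Col3a1 was below the low level on both arrays, and the type VI genes differed by less than 4-fold.

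Granule cells had 7 collagen genes higher (16.7%) and 1 lower (2.38%) than ES cells, where 6.83% of all genes were higher and 4.99% lower. Higher were the fibrillar genes Col1a2, Col3a1, Col5a2 and Col11a1, the basement membrane gene Col4a5, and Col9a1 and Col9a3. Their log2 differences ran from 2.46 for Col11a1, which was 5.49-fold higher, to 4.92 for Col3a1. Col4a1 was the lower gene, and it was no longer called when probe sets were averaged or the arrays were centred on reference genes. Higher calls made up 57.8% of all calls over all genes, and 77.2% after that centring.

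Between the neural arrays, granule cells had 3 collagen genes higher (7.14%) and 3 lower (7.14%) than Sox1 neural stem cells, where 3.66% of all genes were higher and 2.09% lower. Col3a1, Col9a1 and Col9a3 were higher in granule cells, by 4.92, 3.68 and 3.67 log2 units. Col2a1, Col5a1 and Col27a1 were lower, with log2 differences of -2.75, -2.44 and -2.15. The median over the 8 basement membrane genes was -0.62, against 0.00 over all genes. Of all calls 63.6% were higher, and 79.4% with centring on reference genes, under which the rule found 1 collagen gene lower (1.47% of all genes).

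**Figure D3:**
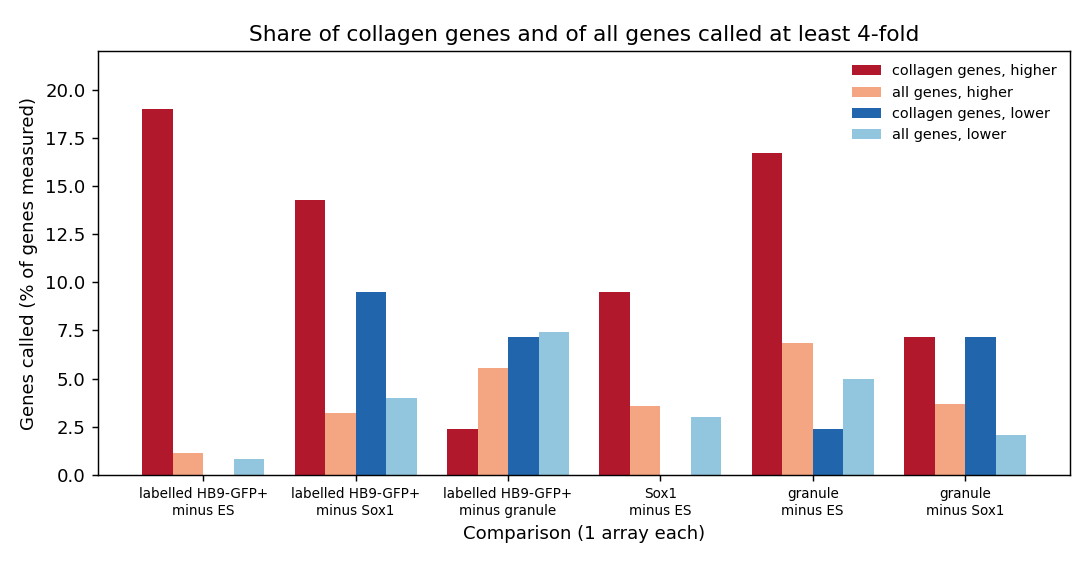
Percent of the 42 collagen genes (dark bars) and of all 18193 genes (pale bars) that were at least 4-fold higher (red) or lower (blue) on the array named on the upper line, for 6 comparisons of 1 array each. Of 42 collagen genes 8 are higher, against 1.11% of all genes, for the HB9-GFP+-labelled array minus ES, and 1 is higher, against 5.53%, for that array minus granule cells.

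A 2-fold rule counted the smaller differences. For the HB9-GFP+-labelled array it gave 9 collagen genes higher and 4 lower than ES cells, where 6.65% and 7.03% of all genes were higher and lower. That array had 10 higher and 4 lower than Sox1 cells (11.5% of all genes in each direction), and 9 higher and 4 lower than granule cells (16.1% and 16.0%). Sox1 cells had 6 higher and 3 lower than ES cells (11% and 11.2%). Granule cells had 12 higher and 7 lower than ES cells (15.4% and 15.1%), and 10 higher and 7 lower than Sox1 cells (10.2% and 8.73%).

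With the 4-fold rule, 40 calls were made on 15 collagen genes, and 7 detected genes were never called. Where a called gene had a further probe set detected on either array, 29 cases in all, the difference had the same sign in 29 and reached 4-fold in 14. Transcripts of members are measured by 3′ probes, and the actin ratio given above was higher on the Sox1 and ES arrays than on the other arrays. The Gapdh ratio was also highest on the Sox1 array, but was lower on the ES array than on the granule array. The part of RNA quality in the differences between arrays was not tested.

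Genes for the enzymes and chaperones that fold collagen were read in the same way. Of 19 measured genes of synthesis and folding, 1 was higher and 0 lower on the HB9-GFP+-labelled array than on the ES array. Over all genes 1.11% were higher and 0.813% lower, and the median log2 difference of the list was 0.32. Granule cells had 1 of the 19 higher and 3 lower than ES cells, where 6.83% and 4.99% of all genes were. Serpinh1, the collagen-specific chaperone HSP47, was at 1282.6 on the HB9-GFP+-labelled array, 1414 in granule cells, 3047.3 in Sox1 cells and 312 in ES cells. It was dimmest on the ES array, 4.11-fold, 4.53-fold and 9.77-fold below the others in that order. The prolyl hydroxylase genes P4ha1 and P4ha2, whose products stabilise the helix, were bright on the ES array. P4ha1 was at 740.8 on the HB9-GFP+-labelled array, 387.4 in granule cells, 200.8 in Sox1 cells and 923.9 in ES cells. P4ha2 was at 628.3, 50.8, 144 and 419.9 in that order. The lysyl hydroxylase gene Plod2 was 4.94-fold lower in granule cells than in ES cells, and the prolyl 3-hydroxylase gene P3h1 was at 82.3 in granule cells against 453.2. P3h2, of the same family, was detected on the Sox1 array alone, at 334.7. Crtap, which encodes the partner of P3h1, was 7.14-fold higher on the HB9-GFP+-labelled array than on the granule array.

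Lox, the enzyme that cross-links collagen and elastin, was at 1162.9 on the HB9-GFP+-labelled array, 79.7 in granule cells, 19.8 in Sox1 cells and 80.1 in ES cells. It was the sole gene of 10 in this list called higher on the HB9-GFP+-labelled array than on the ES array, with 0 lower. Over all genes 1.11% were higher and 0.813% lower in that comparison. Pcolce, an enhancer of procollagen cleavage, was at 5226.3 on the HB9-GFP+-labelled array, 313.6 in granule cells, 223.5 in Sox1 cells and 3384.8 in ES cells. Its relative Pcolce2 was at 784, 56.1, 191.9 and 863.9. Both were thus bright on the arrays with the pluripotency profile, including the ES array on which Col3a1 and the type VI genes were dim. Adamts3, which trims the ends of procollagens, was highest on the Sox1 array at 419.5, and Loxl1 was at 517 in granule cells against 123 in Sox1 cells. In this list, against the Sox1 array, the HB9-GFP+-labelled array had 4 higher and 1 lower (3.22% and 3.97% of all genes). Against the granule array it had 3 higher and 0 lower (5.53% and 7.41%). Sox1 against ES gave 1 higher and 2 lower (3.59% and 3.02%), and granule against ES 0 and 2 (6.83% and 4.99%). Granule against Sox1 gave 1 and 0 (3.66% and 2.09%).

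Among 9 collagen receptor genes, none was called on the HB9-GFP+-labelled array against the ES or granule arrays. Over all genes 1.11% were higher and 0.813% lower than on the ES array, and 5.53% and 7.41% than on the granule array. The absence of calls among 9 genes is thus not read as a result about receptors. Ddr1, a receptor tyrosine kinase that binds collagen, was at 2743.7 on the HB9-GFP+-labelled array, 10215.2 in granule cells, 12044.5 in Sox1 cells and 2280.9 in ES cells. It was 5.28-fold higher in neural stem cells and 4.48-fold higher in granule cells than in ES cells. Mrc2, which takes up collagen fragments, was at 340.3 in Sox1 cells against 8.4 in ES cells. Among 10 turnover genes, Mmp14, Timp1 and Timp2 were higher on the HB9-GFP+-labelled array than on the ES array and 0 were lower. In that comparison 1.11% of all genes were higher and 0.813% lower. Granule cells likewise had Mmp14 and Timp2, with Timp3, higher than ES cells and Timp1 lower, where 6.83% and 4.99% of all genes were. Mmp14 was brightest in granule cells, at 803.4 against 514.6 on the HB9-GFP+-labelled array. Timp1, an inhibitor of matrix metalloproteinases, was at 3037.9 on the HB9-GFP+-labelled array, 99.3 in granule cells, 181.9 in Sox1 cells and 505.8 in ES cells. The inhibitor gene Timp3 was instead brightest on the granule array, at 1312.4, against 242.8, 307.6 and 82.5 on the HB9-GFP+-labelled, Sox1 and ES arrays.

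Laminins, nidogens and proteoglycans share the basement membrane with type IV collagen. Of 14 measured partner genes, 0 were called on the HB9-GFP+-labelled array against the ES array. That is near the share of all genes, 1.11% higher and 0.813% lower. Against granule cells, Lama1, Lama3, Lamc1 and Nid2 were higher and 0 were lower, where 5.53% and 7.41% of all genes were. Granule cells had Lama1, Lamb1, Lamc1 and Nid2 lower than ES cells and 0 higher, with a median of -1.01. Of all genes 4.99% were lower and 6.83% higher. Lamc1, a chain of most laminins, was at 1565.5 on the HB9-GFP+-labelled array, 227.3 in granule cells, 647.0 in Sox1 cells and 2124.6 in ES cells. Granule cells were lowest and ES cells highest, as for Col4a1 and Col4a2 by representative probe sets. The middle arrays were exchanged, since the Sox1 array was dimmer than the HB9-GFP+-labelled array for Lamc1 but brighter for both collagen genes. The nidogen genes, whose products bridge laminin and type IV collagen, were 5.82-fold (Nid1) and 8.89-fold (Nid2) lower in neural stem cells than in ES cells.

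Some fibroblast genes other than collagens had the array order of Col3a1 and the type VI chains, and others did not. Of 15 measured fibroblast markers, 11 were detected on the HB9-GFP+-labelled array, 7 in granule cells, 4 in Sox1 cells and 4 in ES cells, with summed signals of 17799, 5241.7, 2827.8 and 1754. Dcn, a proteoglycan of fibroblasts that binds collagen fibrils, was at 3375.9 on the HB9-GFP+-labelled array, 494.6 in granule cells, 51.6 in Sox1 cells and 24 in ES cells. Lum, a relative of Dcn, was at 1000 on the HB9-GFP+-labelled array, 243.5, 33.3 and 61.5 on the granule, Sox1 and ES arrays. On the HB9-GFP+-labelled array 6 markers were higher and 0 lower than on the ES array, namely Dcn, Lum, Postn, S100a4, Mgp and Bgn. Of all genes 1.11% were higher and 0.813% lower in that comparison. Acta2, a gene of contractile fibroblasts and smooth muscle, was instead brightest in Sox1 cells, at 636.2 on the HB9-GFP+-labelled array, 238.8 in granule cells, 1551.3 in Sox1 cells and 171.3 in ES cells. Tagln, of the same cells, was at 103.9, 16.5, 320.5 and 13.3 in that order, and Twist1 was undetected on every array. Pdgfra was 10.4-fold lower there than on the granule array and Fap was undetected on every array. In bulk RNA, fewer cells of a type and less RNA per cell cannot be told apart, and the part of fibroblast RNA in the collagen signals was not tested.

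**Figure D4:**
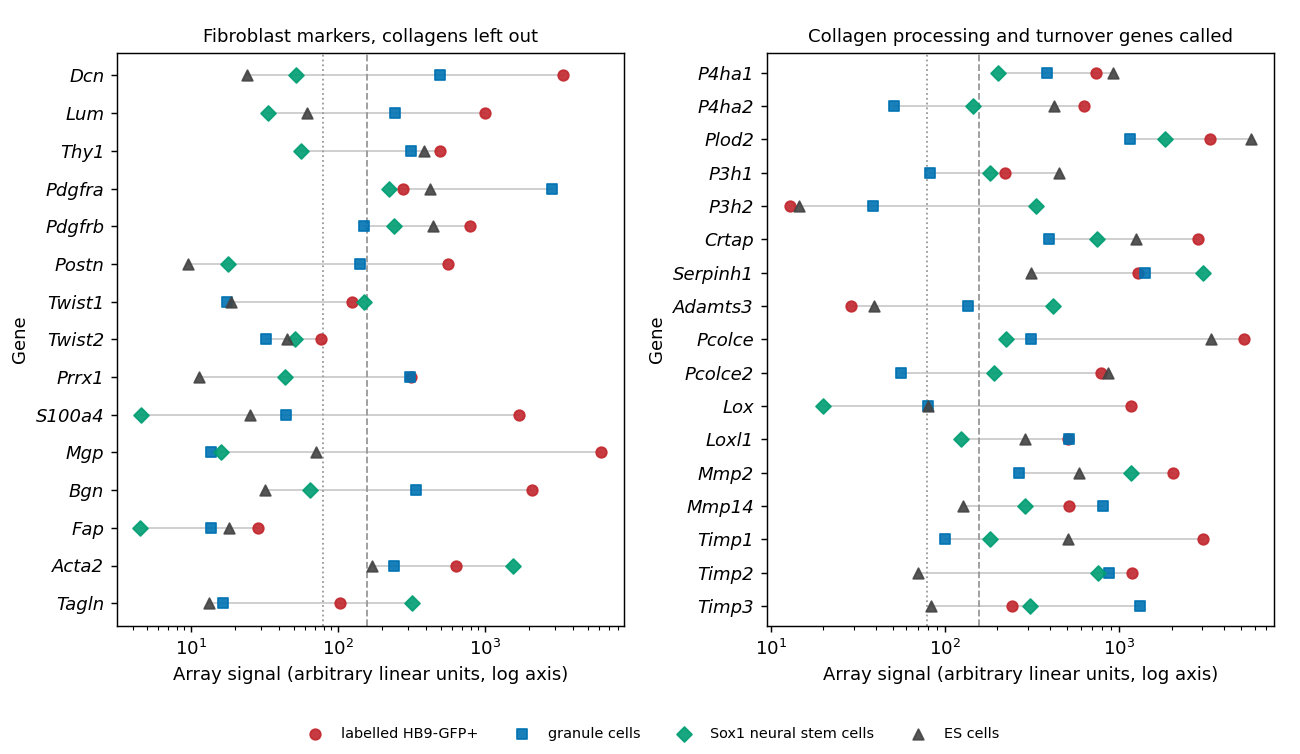
Signals of 15 fibroblast markers (left) and of the genes of collagen synthesis, processing and turnover called in any comparison (right), on log axes in arbitrary linear units, with 1 symbol per array. Dotted and dashed lines are the low and detection levels. Dcn, Lum, Bgn and Mgp reach at least 1000 on the HB9-GFP+-labelled array and stay under 500 elsewhere, whereas Serpinh1 is highest on the Sox1 array.

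Markers of other cells that make collagen were also read. Of 8 vessel markers, 2 were detected on the HB9-GFP+-labelled array, 0 in granule cells, 0 in Sox1 cells and 3 in ES cells. Tek was at 224 on the HB9-GFP+-labelled array and 469.7 in ES cells, and Pecam1 at 185.2 and 232.8. The third in ES cells was Cldn5, at 168.5, just above detection. The endothelial cadherin gene Cdh5 did not exceed 38.4. Rgs5, a pericyte gene, was just under the detection level in granule cells, at 35.3 on the HB9-GFP+-labelled array, 157.3 in granule cells, 14.3 in Sox1 cells and 29.3 in ES cells. Of 6 meninges markers, 2 were detected on the HB9-GFP+-labelled array and 1 on each of the other arrays. On the granule array that gene was Ptgds, at 593.4, and on the Sox1 array it was Crabp2, at 12979.2, a retinoid binding protein that is not confined to meninges. Of 8 endoderm markers, 2 were detected on the HB9-GFP+-labelled array, 1 in granule cells, 5 in Sox1 cells and 3 in ES cells. Summed endoderm signals were 934 on the HB9-GFP+-labelled array, 727 in granule cells, 3663.1 in Sox1 cells and 2154.5 in ES cells. The part of these cell types in the collagen signals was not tested.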

How the data were processed

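Total RNA of each kind of cell was extracted with Trizol, labelled with biotin and hybridised to an Affymetrix array, per the labels' protocols. For each of 45101 probe sets the authors deposited a linear intensity, between 0.1 and 43110.3. GCRMA is named, with no version, in the submitters' processing notes. However, every deposited column has a mean of 500.0 after trimming 2% at each end, which is not the form of GCRMA output, so the step that made the intensities is uncertain. Scaling to a common mean hides differences in total RNA.

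Gene names came from the platform annotation, in which 34945 probe sets outside the controls had 1 symbol, 932 had several and were left out, and the 42 members had 82. All 42 matched RefSeq by gene identifier. Values were put on the log2 scale without a pseudocount in Python 3.11.15 with pandas 2.3.3. The calling rule was run on simulated signals of bright genes, with changes larger than the rule and noise smaller than the spread between probe sets. That run checks the code and cannot give the error rate of calls in these data. Calls needed at least 4-fold on the log2 scale, with low signals set to the low level. Folds are lower bounds where the dimmer array was under the low level, and are left out where its signal was above that level but undetected. The number of arrays limits the precision.

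Every member could be named, and genes of the other lists were named where called in a comparison or used to check labels. Cdh5, Rgs5, Pecam1, Cldn5, Twist1 and Fap, which were called in no comparison, were named after their values were seen. Members and lists were chosen with earlier results of these data known. Alternatives were the mean over probe sets, quantile normalization, centring on reference genes, a lower low level, a stricter detection level and a 2-fold rule. The choice of probe sets by linear mean, and one without the HB9-GFP+-labelled array, were added after seeing the data. List genes without a probe set of their own symbol, such as Fbn1, were not analysed here.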

Additional observations from a re-analysis of the deposited data

How the results depend on the processing

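The counts of collagen genes called were recomputed under 8 alternatives, and 70 of the 90 counts stayed within 1.5 times those reported. No called log2 difference of a collagen gene changed sign under them. With a gene's log2 signal averaged over its probe sets, 5 genes (8 as reported) were higher on the HB9-GFP+-labelled array than on the ES array. On that array 2 (4) were lower than on the Sox1 array, while granule cells had 0 (1) lower than ES cells and 1 (3) lower than Sox1 cells. Under averaging the shares of all genes were 0.781%, 2.24%, 3.91% and 1.41% in that order. Quantile normalization gave 2 (1) higher on the HB9-GFP+-labelled array than in granule cells and 3 (1) lower in granule than in ES cells. Of all genes 6.68% and 5.79% were then called in these. Centring on reference genes, 6 of 10 of which were measured, gave 0 (1) lower in granule than in ES cells and 1 (3) lower than in Sox1 cells. The shares of all genes were 3.14% and 1.47% with that centring. With the low level 1 log2 unit lower, 2 (0) were lower on the HB9-GFP+-labelled array than on the ES array. Then 3 (0) were lower in Sox1 than in ES cells and 2 (1) lower in granule than in ES cells. Of all genes 1.17%, 4.28% and 6.7% were lower in these comparisons at that level. The 2-fold rule gave, for the HB9-GFP+-labelled array, 4 (0) lower than ES, 10 (6) higher than Sox1 and 9 (1) higher than granule cells. Under the same rule Sox1 cells had 3 (0) lower than ES cells, granule cells 12 (7) higher and 7 (1) lower than ES cells, and granule cells 10 (3) higher and 7 (3) lower than Sox1 cells. The probe set of highest mean linear signal gave 3 (1) higher on the HB9-GFP+-labelled array than in granule cells, where 5.63% of all genes were. The stricter detection level, 2 log2 units above the low level, could change no count. A 4-fold difference from the low level already puts the brighter array there. Its counts are among the 70 and say nothing about stability. Leaving out the HB9-GFP+-labelled array kept every count within 1.5 times those reported. Averaging changes which probe sets enter, and a 2-fold rule admits smaller differences. A lower low level keeps the 4-fold rule but widens differences whose dimmer signal was under the level used above. The cause of the other shifts was not tested.

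Centring moved the median log2 difference of all genes to -0.50 for the HB9-GFP+-labelled array minus granule, against 0.04, to 0.40 for granule minus ES, against -0.19, and to 0.34 for granule minus Sox1, against -0.12. Quantile normalization moved it to 0.10 for the HB9-GFP+-labelled array minus ES, against -0.11, and raised the higher share of all calls to 67.8%, against 57.7%. No paired analysis was possible because each group has 1 array. Without replicates, signals near the detection level, such as those of Col12a1 and Col16a1, cannot be ranked.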

Other observations

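Values of 2 further collagen genes were low on every array. Col19a1, made by interneurons, was at 13.6 on the HB9-GFP+-labelled array, 36.1 in granule cells, 66.5 in Sox1 cells and 43.5 in ES cells. Col22a1, a fibril-associated collagen gene, was undetected by its representative probe set, at 118.6, 50.1, 114.8 and 116.9 in that order, and a further probe set reached 159.6, just above the detection level, in Sox1 cells.

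Members that neighbour each other in the genome did not always share a pattern. By representative probe sets, the pairs Col6a1 with Col6a2, Col4a1 with Col4a2 and Col3a1 with Col5a2 each had the same brightest array. On further probe sets, Col5a2 was instead brightest in granule cells (634.0) and Col4a1 on the HB9-GFP+-labelled array (571.3). In the pair of Col9a1 with Col19a1, only Col9a1 was detected, and in that of Col4a5 with Col4a6, only Col4a5 by its representative probe set.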
